A study of Mus musculus with 16 samples.

Results

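The genes described here are 42 genes of the lysosome and of the proton pump that acidifies it, out of 13430 genes in the table. They were chosen by symbol. Of these, 26 encode lysosomal enzymes, membrane proteins, lipid carriers and regulators, and 16 encode subunits of the vacuolar proton pump (V-ATPase) that most cell types use. All 42 were in the table and all 42 passed the filter on low values, so every member was tested. The choice of genes set 1 of them, Acp2, against the rest, because its rise on bicarbonate in wild type was already known from these libraries.

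The data were RPKM values (reads scaled to the length of the transcript and to the reads of the library) from kidneys of 16 female C57BL/6 mice aged 2 to 3 months, with 1 library per animal and 4 animals per group. The 4 groups were IRR knockout with bicarbonate, IRR knockout with water, wild type with bicarbonate and wild type with water. IRR(-/-) mice are a knockout of Insrr, which encodes IRR, a relative of the insulin receptor that is switched on by alkaline fluid outside the cell. Bicarbonate means sodium bicarbonate at 250 mM and pH 8.5 in the drink for 7 days, and mice of every group fasted for 12 h with access to their drink before the kidneys were taken. Each library was made from a slice 3 mm thick from the middle of 1 kidney, so it mixes the cell types of the organ. How the knockout allele was made, and whether the genotypes were littermates, was not given in the sources used here.

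Lysosomes are the acid compartments in which cells break down proteins, sugars, lipids and phosphate esters with hydrolases that work at low pH. The V-ATPase pumps protons into them. Its V1 domain faces the cytosol and splits ATP, and its V0 domain sits in the membrane and carries the protons. In the kidney the same pump, with isoforms kept for intercalated cells, also moves acid across the cell surface, and proximal tubule cells are rich in lysosomes because they take up filtered protein. TFEB and TFE3 are transcription factors that switch on many lysosomal genes through the E-box CACGTG, mostly in the longer form TCACGTGA.

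Because this motif is the known common element of lysosomal promoters, the promoter windows of the members were searched for it. RefSeq windows of 300 bases, from 250 bases before to 50 bases after the transcription start on GRCm38.p6, were found for 33 of the 42 members, with 42 windows in all. The letters CACGTG, which read the same on both strands, occurred in 13 of the 33 members and in 31.0% of their windows, against 7.15% of all 32851 windows in the table. TCACGTGA, which contains CACGTG and also reads the same on both strands, occurred in 7 members and 16.7% of their windows, against 0.974% of all windows. The single window of Acp2 held no CACGTG. One copy from each of the 7 members is shown in 30 bases, 5′ to 3′ on the strand of the gene, with TCACGTGA in capitals; Ctsa and Gla had a further copy that is not printed.
Ctsa: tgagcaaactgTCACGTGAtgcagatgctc (chr2:164833749-164833778, plus strand)
Ctsd: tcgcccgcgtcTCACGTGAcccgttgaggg (chr7:142387908-142387937, minus strand)
Gla: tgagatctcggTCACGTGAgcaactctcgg (chrX:134601182-134601211, minus strand)
Mcoln1: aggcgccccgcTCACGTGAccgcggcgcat (chr8:3500462-3500491, plus strand)
Atp6v1a: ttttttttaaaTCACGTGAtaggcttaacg (chr16:44139373-44139402, minus strand)
Atp6v0d1: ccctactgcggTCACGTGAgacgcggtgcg (chr8:105566050-105566079, minus strand)
Atp6v0e: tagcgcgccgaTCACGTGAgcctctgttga (chr17:26676387-26676416, plus strand)
A match says that these letters are present and nothing about binding. Of these 7 genes, 2 (Ctsa and Atp6v1a) passed the test in a genotype comparison given further on, and in opposite directions, against 17 of all 42 members and 28.3% of all genes tested.

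Depth is unknown, because the table gives no counts. Library medians ran from 8.44 to 8.92 RPKM. Insrr itself was lower in the knockout but was not absent. It averaged 3.58 ± 0.181 RPKM in the knockout against 5.13 ± 0.972 in wild type on bicarbonate (limma adjusted p = 0.0182), and 3.62 ± 0.343 RPKM in the knockout against 5.93 ± 0.824 in wild type on water (SD, n = 4 each; limma adjusted p = 0.00180). Mitochondrially encoded genes made up 82.6% to 84.9% of the summed RPKM in knockout libraries and 69.6% to 74.2% in wild-type libraries. The sum of RPKM over all genes was itself 2415152 to 2927108 in knockout libraries and 1358770 to 1602927 in wild-type libraries. The part of these splits in the genotype differences was not tested beyond the other scalings named further on. Kidney markers (Lrp2, Umod, Slc12a3, Aqp2 and others) were present in all groups. Wild-type bicarbonate replicate 3 stood apart, since the summed level of its 8 proximal tubule markers, 2573 RPKM, was the lowest of its group, whose highest was 11283. That library was also the highest of its group for 23 of the 42 members, so results on wild-type bicarbonate libraries are given without it where they move. Knockout water replicate 4 was the highest of its group for 24 members and is treated in the same way. In whole kidney slices, fewer cells of a type and less RNA per cell cannot be told apart.

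The members were abundant genes. Their median level over the 16 libraries was 75.0 RPKM, against 8.90 RPKM over all genes in the table, and it was 48.6 RPKM for the lysosomal members and 125 RPKM for the pump members. Of the 42, 38 averaged at least 10 RPKM and 18 at least 100 RPKM. In wild-type mice on water the lysosomal membrane glycoproteins Lamp1 (484 ± 10.7 RPKM) and Lamp2 (450 ± 38.5) and the saposin precursor Psap (432 ± 42.05) led, followed by the aspartic protease Ctsd (311 ± 12.0) and the proton-carrying ring subunit Atp6v0c (283 ± 16.2; SD, n = 4). Lamp1 and Lamp2, and Lamp2 and Psap, differed by less than the larger SD of each pair. At the low end were Gla (alpha-galactosidase A), Acp2 (4.11 ± 1.03 RPKM), Gusb (beta-glucuronidase, 4.54 ± 0.703) and Npc1 (a cholesterol carrier, 5.31 ± 0.607). Gla was listed at 0 in some libraries of each group, and its values were 1.97, 0, 2.56 and 1.83 RPKM in knockout mice on bicarbonate, 2.72, 1.72, 1.73 and 0 in knockout mice on water, 0.783, 0, 0 and 0.505 in wild-type mice on bicarbonate and 2.10, 0.614, 0 and 0 in wild-type mice on water. Its fitted differences depend on the pseudocount and are not given.

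**Figure D1:**
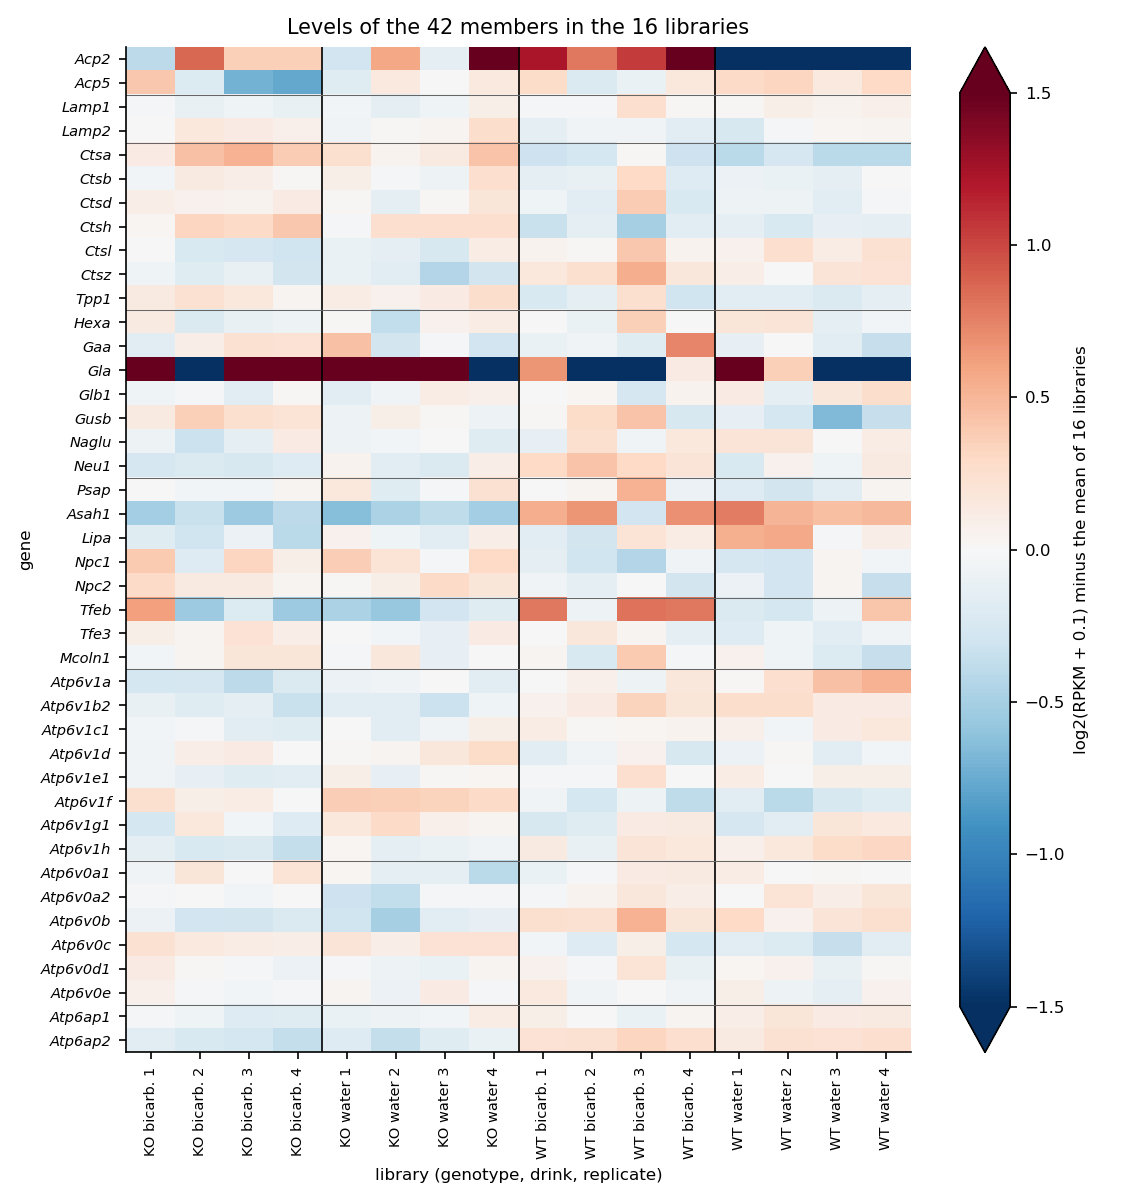
Levels of the 42 members (rows, by role) in the 16 libraries (columns), as log2(RPKM + 0.1) minus the mean of the 16 libraries of that gene, with colours limited to 1.5 on either side. The row of Acp2 is low in the 4 wild-type water libraries, and Asah1 is low in the knockout libraries. The row of Gla is strongly coloured, with its values of 0 beyond the colour limit. Most other rows are pale.

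Acp2, the lysosomal acid phosphatase, a membrane-anchored enzyme that removes phosphate from many substrates, had the largest log2 difference of any member for bicarbonate in wild type and between genotypes on water. Its levels were 11.5, 27.5, 19.2 and 19.4 RPKM in knockout mice on bicarbonate and 12.3, 22.6, 13.6 and 47.5 RPKM in knockout mice on water. In wild type they were 35.2, 26.2, 31.3 and 42.8 RPKM on bicarbonate and 2.73, 4.57, 3.99 and 5.13 RPKM on water. The 4 wild-type water libraries were the low ones, and no library of another group reached down to them.

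In wild type Acp2 rose on bicarbonate, at 33.9 ± 6.98 RPKM on bicarbonate and 4.11 ± 1.03 RPKM on water (SD, n = 4 each), an 8.25-fold ratio of means. The log2 difference was 3.03 ± 0.37 (SE; limma with Benjamini-Hochberg adjustment, adjusted p = 0.00592). It had the second smallest p and ranked 6 by log2 difference among the 12943 genes tested. The call held in all 16 alternatives, with log2 differences between 2.77 and 3.14, and was 3.06 (limma, adjusted p = 0.0304) without wild-type bicarbonate replicate 3. On this log2(RPKM + 0.1) scale the change of low genes is understated.

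In the knockout Acp2 did not pass the test for bicarbonate, at 19.4 ± 6.54 RPKM on bicarbonate and 24.0 ± 16.3 RPKM on water (SD, n = 4 each; log2 difference -0.15 ± 0.37, limma adjusted p = 0.960). The sign turned to 0.25 without knockout water replicate 4, its highest library, and to 0.08 without knockout bicarbonate replicate 1. Between genotypes on water, Acp2 was higher in the knockout by 2.34 ± 0.37 on the log2 scale (limma adjusted p = 0.000482), a 5.85-fold ratio of means, and by 1.94 (limma adjusted p = 0.000475) without knockout water replicate 4. On bicarbonate the difference was -0.85 ± 0.37, with knockout and wild-type libraries overlapping (limma adjusted p = 0.133). The rise on bicarbonate in wild type and the higher level in the knockout on water rest on the same 4 wild-type water libraries, so these are not separate observations.

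The response of Acp2 in the knockout minus that in wild type was -3.18 ± 0.52 on the log2 scale and missed the threshold (limma adjusted p = 0.0844, unadjusted p = 2.6e-05). It was the fourth smallest p of the interaction. The value passed after removal of the length and GC trend (-3.25, limma adjusted p just under the threshold at 0.04995), under a replicate block (limma adjusted p = 0.0347) and without knockout water replicate 4 (-2.78, limma adjusted p = 0.0440). In the other 20 of 23 alternatives it did not pass, with no change of sign in any.

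The genes around Acp2 did not pass in any comparison. GENCODE M21 places Acp2 on the plus strand of chromosome 2 (GRCm38, chr2:91202885-91214098), next to Nr1h3, which encodes the oxysterol receptor LXR alpha, on one side and Ddb2, a DNA damage recognition gene, on the other. Ddb2 runs on the opposite strand and overlaps Acp2 over 2527 bases, and since the strandedness of the libraries was not given in the sources used here, reads from the shared stretch cannot be assigned to either gene. Ddb2 had 8.98, 10.4, 9.64 and 9.52 RPKM in wild-type mice on bicarbonate against 8.71, 7.13, 7.68 and 8.42 RPKM in wild-type mice on water. These groups did not overlap, as was so for 5.86% of all genes tested, but the difference of 0.27 missed the threshold (limma adjusted p = 0.391). Nr1h3 averaged 12.2 ± 1.07 RPKM on bicarbonate and 11.9 ± 1.27 on water in wild type (SD, n = 4 each; log2 difference 0.04). Of the 4 neighbours in the table within 50 kb (Madd, Nr1h3, Ddb2 and Pacsin3), 0 passed by limma in any comparison. For bicarbonate in wild type 2 (Ddb2 and Pacsin3) were at an unadjusted p under 0.05, against 12.0% of all genes, and 0 in the other comparisons. Pacsin3, which encodes an endocytic adaptor, had 15.7, 15.3, 12.5 and 15.3 RPKM on bicarbonate against 10.98, 10.9, 11.7 and 13.4 RPKM on water in wild type, which overlapped (log2 difference 0.32, limma adjusted p = 0.312).

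**Figure D2:**
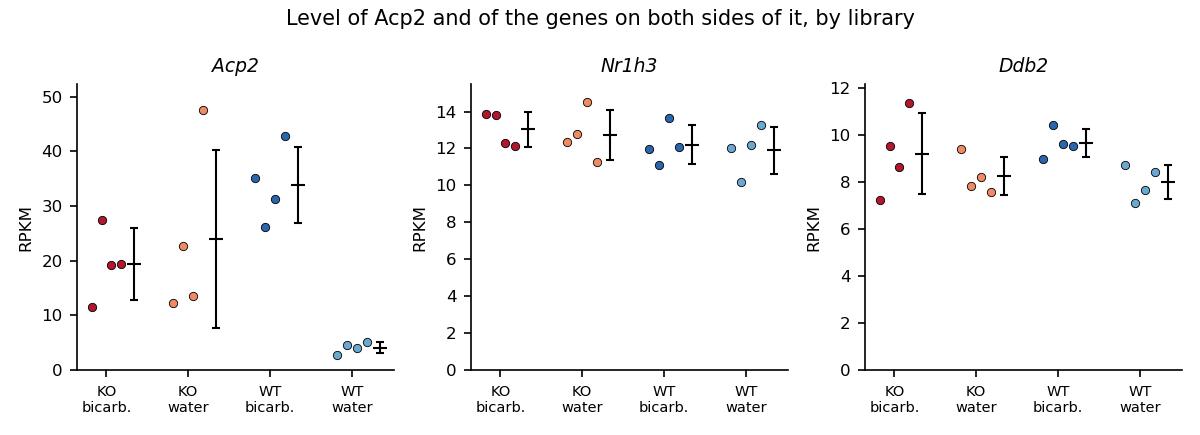
RPKM (y axis, from 0) of Acp2 and its neighbours Nr1h3 and Ddb2 in each library, by genotype and drink, with the mean and SD of 4 libraries beside the points. Acp2 lies between 2.73 and 5.13 RPKM in wild-type mice on water and at 11.5 RPKM or more in the other 3 groups, while Nr1h3 lies between 10.2 and 14.5 RPKM and Ddb2 between 7.13 and 11.4 RPKM over all groups.

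For bicarbonate in wild type, the question is how the normal kidney answers an alkali load. Acp2 was the 1 member of 42 that passed, against 0.139% of all genes tested and 0.0386% called higher. Its rise was known from these libraries before the genes were chosen, so this count cannot be read against those shares. The other 41 did not pass. Their log2 differences had a median of -0.00, against -0.01 over all genes tested, and without Gla they ran from -0.33 (Lipa) to 0.61 (Tfeb). Counting Acp2, 7 of the 42 were at an unadjusted p under 0.05, against 12.0% of all genes.

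By role, the 7 lysosomal peptidases lay between -0.13 (Ctsh) and 0.15 (Ctsz) for bicarbonate in wild type. Lamp1 and Lamp2 were at -0.01 and -0.06. Among the 7 glycosidases, Neu1 (sialidase) was at 0.33 ± 0.09 and Gusb at 0.47 ± 0.14, neither past the threshold (limma adjusted p = 0.142 and 0.180). Neu1 had 119, 129, 118 and 110 RPKM on bicarbonate against 82.0, 101, 92.4 and 106 RPKM on water in wild type, and these groups did not overlap. The groups of 3 of the 42 members (Acp2 and Neu1 above, Atp6ap1 below) did not overlap for bicarbonate in wild type, against 5.86% of all genes. The genes of lipid handling ran from -0.33 (Lipa, lysosomal acid lipase) to 0.27 (Psap). Psap had 479, 493, 686 and 450 RPKM on bicarbonate, highest in replicate 3, against 417, 393, 426 and 492 RPKM on water. The lowest alternative gave 0.14 for Psap. Acp5, the tartrate-resistant acid phosphatase best known from osteoclasts and macrophages, was at -0.24 ± 0.20.

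Tfeb, the master regulator of lysosomal genes, had 14.4, 7.84, 14.7 and 14.3 RPKM on bicarbonate against 7.12, 6.88, 7.82 and 11.1 RPKM on water in wild type. Replicate 2 on bicarbonate lay at the level of the water libraries, and the difference of 0.61 ± 0.26 missed the threshold (limma adjusted p = 0.349). Its relative Tfe3 was at 0.14 ± 0.08 and the lysosomal calcium channel Mcoln1, a known TFEB target, at 0.18 ± 0.12.

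The 16 pump genes stayed between -0.26 (Atp6v1a, the catalytic subunit) and 0.12 (Atp6v0c) for bicarbonate in wild type. Of the 8 genes of the V1 domain 7 were below 0, and of the 6 of the V0 domain 2 were, with a median of -0.02 for V1 and 0.03 for V0. Summed over the 16 genes, pump RPKM were 1876 ± 102 on bicarbonate and 1882 ± 63.7 on water in wild type (SD, n = 4 each). The highest pump sum on bicarbonate, 2022 RPKM, was that of replicate 3. The 25 lysosomal members other than Acp2 summed to 3096 ± 300 RPKM on bicarbonate and 2982 ± 82.4 RPKM on water in wild type. The highest of these sums, 3543 RPKM, was also that of wild-type bicarbonate replicate 3. Without that library the lysosomal mean on bicarbonate was below the mean on water.

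In the knockout, bicarbonate gave 0 calls among the 42 members by limma, against 0.0232% of all genes tested. At an unadjusted p under 0.05 there were 4, against 7.99% of all genes, and the groups of 3 (Gusb above, Atp6v1a and Atp6v1f below) did not overlap, against 5.66% of all genes. All 8 genes of the V1 domain had a negative difference, and none passed. They ran from -0.02 (Atp6v1b2) to -0.23 (Atp6v1f, a small subunit of the rotor stalk, limma adjusted p = 0.476). Of all 42 members 17 had a positive difference, against 16 with median-of-ratios scaling, 23 with quantile normalization and 22 without knockout water replicate 4. Summed pump RPKM were 1755 ± 61.5 on bicarbonate and 1862 ± 38.1 on water in the knockout (SD, n = 4 each). The 25 lysosomal members other than Acp2 summed to 3117 ± 48.4 on bicarbonate and 3120 ± 232 on water, and their log2 differences lay between -0.35 (Acp5) and 0.25 (Gusb). The highest of these sums, 3449 RPKM, was that of knockout water replicate 4. Without that library the mean on water was below the mean on bicarbonate.

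**Figure D3:**
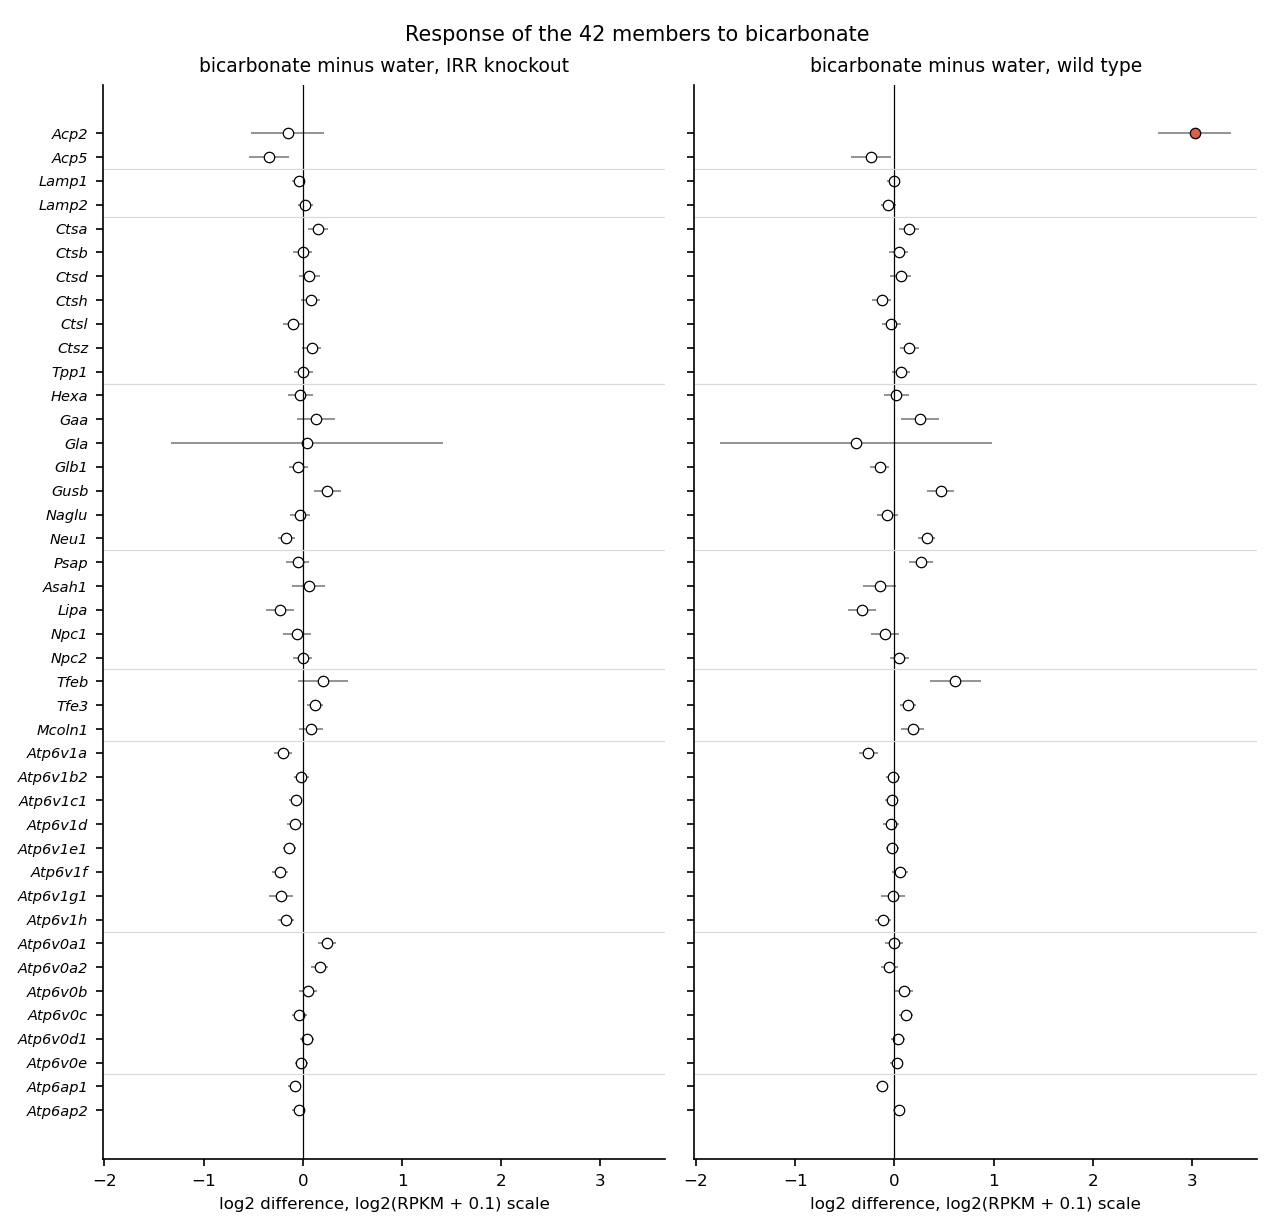
Log2 difference, bicarbonate minus water on the log2(RPKM + 0.1) scale, of each member in the IRR knockout (left) and in wild type (right), with bars of 1 SE from the fit; filled points passed the threshold. Acp2 at 3.03 in wild type is the 1 filled point, and the wide bars of Gla go with values of 0 in 6 of its 16 libraries, so that its points depend on the pseudocount.

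More members passed between genotypes than for bicarbonate. The comparison of knockout with wild type asks what the kidney lacks or gains without the receptor. On water 15 of 42 members passed (35.7%), 7 higher and 8 lower in the knockout, against 21.9% of all genes tested (10.1% higher and 11.8% lower). On bicarbonate 13 passed (31.0%), 4 higher and 9 lower, against 18.4% of all genes (9.03% higher and 9.36% lower). At an unadjusted p under 0.05 there were 21 members on bicarbonate and 21 on water, against 31.4% and 34.3% of all genes. The groups did not overlap for 18 members on bicarbonate and 17 on water, against 22.8% and 23.8% of all genes. The median difference of the members was -0.04 on water and -0.07 on bicarbonate, against -0.05 and -0.02 over all genes tested. These 2 comparisons share no library. In them 11 members passed both times, 4 higher and 7 lower, each with the same sign, which is 73.3% of the calls on water and 84.6% of those on bicarbonate. Over all genes tested 1546 passed both times, 1544 of them with the same sign, which is 54.6% of the calls on water and 64.9% of those on bicarbonate. In neither did 25 members pass. On water 15 members passed without knockout water replicate 4, 5 higher and 10 lower, against 1146 and 1390 of 12943 genes tested. On bicarbonate 14 members passed without wild-type bicarbonate replicate 3, 6 higher and 8 lower, against 1123 and 1120 of those genes.

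**Figure D4:**
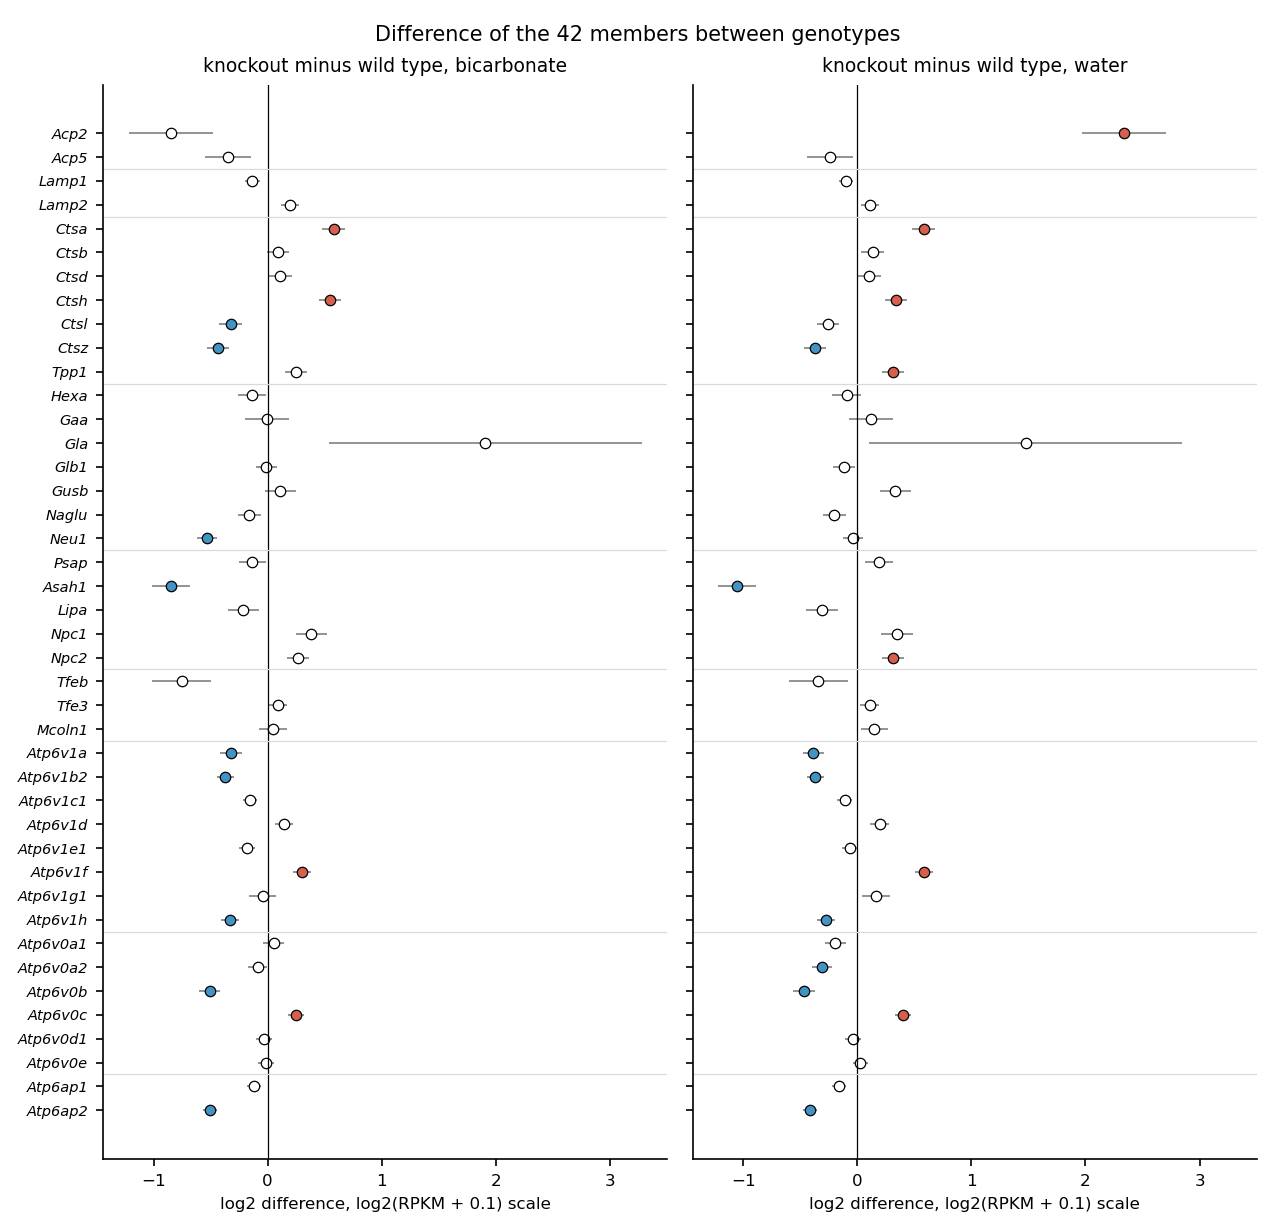
Log2 difference, knockout minus wild type on the log2(RPKM + 0.1) scale, of each member on bicarbonate (left) and on water (right), with bars of 1 SE from the fit. Red points passed the threshold as higher in the knockout and blue points as lower; apart from Acp2, each gene filled in either panel lies on the same side of 0 in both.

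On water the largest drop among the members was that of Asah1, acid ceramidase, which splits ceramide into sphingosine and fatty acid. Asah1 had 38.1, 42.9, 37.1 and 41.4 RPKM in knockout mice on bicarbonate against 79.0, 86.2, 44.4 and 87.6 RPKM in wild-type mice on bicarbonate. On water it had 34.8, 39.0, 41.6 and 38.0 RPKM in the knockout against 92.2, 77.0, 74.1 and 75.8 RPKM in wild type. Knockout and wild type did not overlap on either drink, although wild-type bicarbonate replicate 3 was close to the knockout. The log2 difference was -0.85 ± 0.17 on bicarbonate (limma adjusted p = 0.00256), -1.08 (limma adjusted p = 2.95e-06) without that library, and -1.05 ± 0.17 on water (limma adjusted p = 0.000406).

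Among the peptidases, 2 were higher and 1 was lower in the knockout on both drinks. Ctsa, the protective protein that also stabilises sialidase, had 221, 277, 292 and 265 RPKM in knockout mice on bicarbonate against 164, 169, 207 and 165 in wild-type mice on bicarbonate. On water Ctsa had 241, 212, 224 and 275 RPKM in the knockout against 154, 171, 154 and 154 in wild type. Its groups did not overlap, and the log2 difference was 0.58 ± 0.10 on each drink (limma adjusted p = 0.00110 on bicarbonate and 0.000835 on water).

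Ctsh, an aminopeptidase, had 204, 251, 246 and 265 RPKM in knockout mice on bicarbonate against 160, 182, 142 and 178 in wild-type mice on bicarbonate, and 197, 239, 239 and 240 RPKM in knockout mice on water against 181, 172, 184 and 183 in wild-type mice on water. Every knockout library was above every wild-type library, with log2 differences of 0.55 ± 0.09 on bicarbonate (limma adjusted p = 0.00101) and 0.34 ± 0.09 on water (limma adjusted p = 0.0173). The call on water was lost with quantile normalization (0.23, limma adjusted p = 0.159).

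Ctsz, a carboxypeptidase, had 63.5, 58.3, 61.1 and 54.9 RPKM in knockout mice on bicarbonate against 74.2, 78.0, 96.4 and 74.3 in wild-type mice on bicarbonate. On water its values were 61.8, 58.7, 49.0 and 54.8 RPKM in the knockout against 70.8, 66.4, 75.5 and 76.8 in wild type. The groups did not overlap, and Ctsz was lower by 0.43 on bicarbonate (limma adjusted p = 0.00471) and by 0.37 on water (limma adjusted p = 0.0103) on the log2 scale.

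Of the 5 calls made on 1 drink among the lysosomal genes, 3 lay near the threshold and were lost when any 1 of several libraries was left out. Tpp1, a tripeptidase, was higher in the knockout on water by 0.31 on the log2 scale (limma adjusted p = 0.0275), with 85.2, 82.6, 86.1 and 95.4 RPKM in the knockout against 70.9, 70.6, 68.0 and 71.5 RPKM in wild type. Its groups did not overlap on water. The call was lost without wild-type water replicate 2 or 3 or knockout water replicate 3 or 4 (limma adjusted p from 0.0509 to 0.0792). On bicarbonate Tpp1 had 86.7, 93.1, 88.4 and 81.8 RPKM in the knockout against 67.4, 71.8, 93.8 and 64.5 RPKM in wild type. These groups overlapped through wild-type bicarbonate replicate 3. Npc2, a soluble cholesterol carrier, was higher on water by 0.32 (limma adjusted p = 0.0274), with overlapping groups. That call was lost with only the groups compared and without wild-type water replicate 2 or 4 or knockout water replicate 3 or 4 (limma adjusted p from 0.0612 to 0.0836). Ctsl, a cysteine protease, was lower on bicarbonate by 0.32 on the log2 scale (limma adjusted p = 0.0310). Its call was lost with only the groups compared, under the replicate block, and without wild-type bicarbonate replicate 3 or knockout bicarbonate replicate 2, 3 or 4 (limma adjusted p from 0.0575 to 0.0891). The fourth and the fifth were Acp2 on water and Neu1 on bicarbonate, whose calls held in every alternative.

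Neu1, which splits sialic acid from sugar chains, was the 1 glycosidase that passed. It had 80.9, 82.8, 81.6 and 83.9 RPKM in knockout mice on bicarbonate against 119, 129, 118 and 110 RPKM in wild-type mice on bicarbonate. These groups were far apart, and Neu1 was lower in the knockout by 0.53 on the log2 scale (limma adjusted p = 0.000703). On water it had 100, 85.3, 82.9 and 103 RPKM in the knockout against 82.0, 101, 92.4 and 106 RPKM in wild type, which overlapped (log2 difference -0.04, limma adjusted p = 0.805). The difference between these differences, -0.49 ± 0.12 on the log2 scale, missed the threshold (limma adjusted p = 0.420, unadjusted p = 0.0012). Wild-type bicarbonate libraries, which were the high ones here, were also those compared with wild-type water for the bicarbonate response.

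The pump genes did not move as 1 block. On both drinks 7 of the 16 passed (43.75%, against 11.9% of all genes tested), 5 of them lower and 2 higher in the knockout, and the subunits on opposite sides belonged to the same domains. In the V1 domain Atp6v1a, Atp6v1b2 and Atp6v1h were lower and Atp6v1f was higher. In the V0 domain Atp6v0b was lower and Atp6v0c, both of them proteolipids of the proton-carrying ring, was higher. Of the accessory subunits Atp6ap2, the prorenin receptor, was lower.

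Atp6ap2 had 70.7, 67.0, 65.5 and 61.2 RPKM in knockout mice on bicarbonate against 91.2, 92.1, 97.9 and 93.6 in wild-type mice on bicarbonate. On water it had 68.5, 61.4, 69.3 and 73.6 RPKM in the knockout against 86.3, 92.1, 91.1 and 93.7 in wild type. There was no overlap, and the log2 differences were -0.50 ± 0.06 on bicarbonate (limma adjusted p = 7.4e-05) and -0.41 ± 0.06 on water (limma adjusted p = 0.000272). After removal of the length and GC trend the difference on water was -0.20 and still passed (limma adjusted p = 0.0355).

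Atp6v0b had 153, 132, 134 and 140 RPKM in knockout mice on bicarbonate against 191, 189, 232 and 183 in wild-type mice on bicarbonate. On water it had 132, 115, 144 and 149 RPKM in the knockout against 199, 169, 185 and 191 in wild type. Knockout libraries were below wild-type libraries throughout, and Atp6v0b was lower by 0.51 on bicarbonate (limma adjusted p = 0.00154) and by 0.47 on water (limma adjusted p = 0.00224) on the log2 scale. Its ring partner Atp6v0c had 385, 367, 356 and 353 RPKM in knockout mice on bicarbonate against 320, 289, 350 and 275 in wild-type mice on bicarbonate, and 377, 352, 383 and 384 RPKM in knockout mice on water against 293, 285, 260 and 295 in wild-type mice on water. These too did not overlap, with log2 differences of 0.25 ± 0.07 on bicarbonate (limma adjusted p = 0.0259) and 0.40 ± 0.07 on water (limma adjusted p = 0.00104). On bicarbonate its call was lost with only the groups compared and without wild-type bicarbonate replicate 2 or 4 or knockout bicarbonate replicate 1 or 2 (limma adjusted p from 0.0573 to 0.0768).

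Atp6v1f had 147, 133, 134 and 124 RPKM in knockout mice on bicarbonate against 120, 104, 118 and 95.4 in wild-type mice on bicarbonate, and 161, 159, 158 and 152 RPKM in knockout mice on water against 112, 93.8, 105 and 110 in wild-type mice on water. The groups were apart on both drinks, further so on water, with log2 differences of 0.30 ± 0.08 on bicarbonate (limma adjusted p = 0.0169) and 0.59 ± 0.08 on water (limma adjusted p = 0.000127). On bicarbonate its call was lost with only the groups compared, after removal of the length and GC trend and without wild-type bicarbonate replicate 4 (limma adjusted p from 0.0511 to 0.0885). Removing that trend left 0.23 on water, still past the threshold (limma adjusted p = 0.00437).

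Atp6v1b2, the ubiquitous B subunit that helps form the ATP-binding sites, was lower by 0.37 on the log2 scale on each drink, at 113 ± 7.56 RPKM in the knockout against 147 ± 11.7 in wild type on bicarbonate and 114 ± 8.37 in the knockout against 148 ± 7.97 in wild type on water (SD, n = 4 each; limma adjusted p = 0.00281 on bicarbonate and 0.00240 on water). Atp6v1a, which splits ATP, averaged 114 ± 6.01 RPKM in the knockout against 143 ± 10.3 in wild type on bicarbonate and 131 ± 6.41 RPKM in the knockout against 173 ± 26.3 in wild type on water (SD, n = 4 each). Neither gene's groups overlapped. Atp6v1a was lower by 0.32 on bicarbonate (limma adjusted p = 0.0267) and by 0.38 on water (limma adjusted p = 0.00855), and on bicarbonate its call did not hold without wild-type bicarbonate replicate 2 or 4 or knockout bicarbonate replicate 3 (limma adjusted p from 0.0606 to 0.0808).

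The regulatory subunit Atp6v1h was lower by 0.33 on bicarbonate (limma adjusted p = 0.00916) and by 0.27 on water (limma adjusted p = 0.0207). On water its difference was -0.07 after that trend was removed (limma adjusted p = 0.625), and the call was also lost without wild-type water replicate 3 or 4 or knockout water replicate 2 or 3 (limma adjusted p from 0.0523 to 0.0599). Atp6v0a2, a large membrane subunit known from Golgi and endosomes, was lower on water by 0.31 (limma adjusted p = 0.0170), a call lost with only the groups compared and without wild-type water replicate 2 or knockout water replicate 1 or 2 (limma adjusted p from 0.0518 to 0.0745). On bicarbonate Atp6v0a2 was at -0.09. The other 8 pump genes did not pass on either drink and lay between -0.19 (Atp6v0a1) and 0.20 (Atp6v1d).

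**Figure D5:**
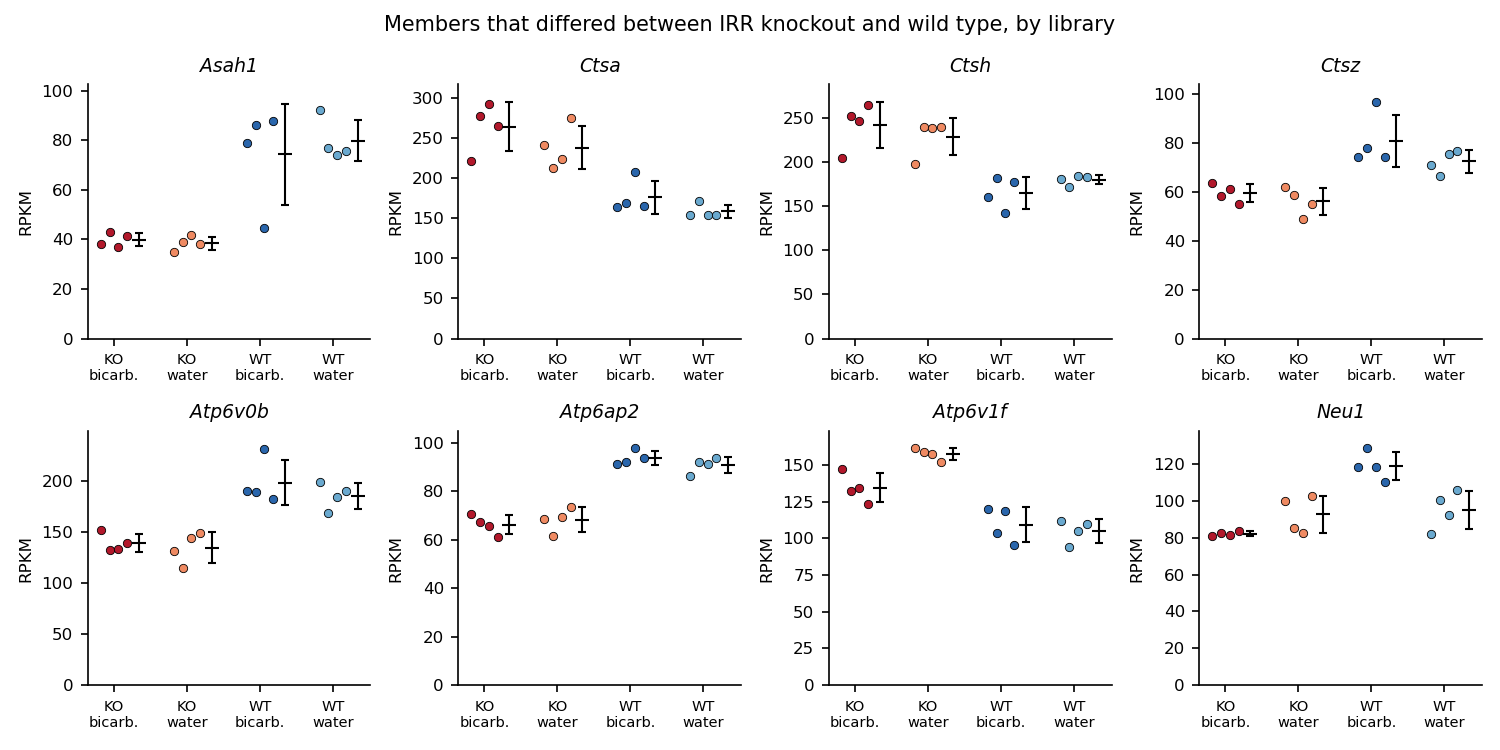
RPKM (y axes, from 0) of 8 members in each library, by genotype and drink, with the mean and SD of 4 libraries beside the points. Knockout and wild-type libraries do not overlap on either drink for the first 7 genes, and for Neu1 they are apart on bicarbonate and overlap on water; wild-type bicarbonate replicate 3 is the low point of Asah1 at 44.4 RPKM.

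Transcript length moved with the genotype difference. Of the 500 tested genes whose longest transcript is at most 1000 bases, 48.2% passed on water, with a median log2 difference of 0.38. Of the 10320 longer than 2000 bases, 19.9% passed, with a median of -0.06. The short class held 2 members, Atp6v1f, which was higher, and Atp6v0b, which was lower. After removal of the length and GC trend, 17 members passed on water, 10 higher and 7 lower in the knockout. Over all 12943 genes 1294 were higher and 1121 lower there. On bicarbonate 13 members passed, 4 higher and 9 lower, against 1145 and 1132 of all genes.

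Tfeb, Tfe3 and Mcoln1 did not pass between genotypes. Tfeb had 12.7, 5.64, 7.14 and 5.62 RPKM in knockout mice on bicarbonate against 14.4, 7.84, 14.7 and 14.3 in wild-type mice on bicarbonate, which overlapped (log2 difference -0.75 ± 0.26, limma adjusted p = 0.0530). On water its difference was -0.34 ± 0.26. Tfe3 was at 0.09 on bicarbonate and 0.11 on water, and Mcoln1 at 0.05 on bicarbonate and 0.15 on water.

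For the interaction, which sets the bicarbonate response of the knockout against that of wild type, 0 of 42 members passed by limma, against 0.0155% of all genes tested. At an unadjusted p under 0.05 there were 3 (Acp2, Neu1 and Atp6v1f), against 8.19% of all genes. Leaving out Acp2 and Gla, the members ran from -0.49 (Neu1) to 0.25 (Atp6v0a1).

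Genes of the lysosome outside the 42 were read in the same way. Of 52 listed, 51 were in the table, and 0 passed by limma for bicarbonate in either genotype, with 6 at an unadjusted p under 0.05 in the knockout and 7 in wild type, against 7.99% and 12.0% of all genes. In knockout against wild type 6 were higher and 8 lower on bicarbonate, against 18.4% of all genes called. On water 5 were higher and 10 lower, against 21.9%. Only some of these calls are named next, and the names do not follow this balance of higher and lower. Ostm1, a partner of a lysosomal chloride channel, was lower by 0.55 on bicarbonate and 0.40 on water. Laptm4b, a lysosomal membrane protein, was lower by 0.44 on bicarbonate and 0.60 on water. Higher in the knockout were Gm2a, a ganglioside activator protein, by 0.36 on bicarbonate and 0.46 on water, and the membrane protein Cd63, by 0.23 on bicarbonate and 0.34 on water, while Tmem192, another membrane protein, was higher by 0.63 on water (limma, adjusted p of 0.0352 or less for each value named).

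Of 16 other V-ATPase subunits and assembly genes, 15 were in the table. The assembly factor Tmem199 was lower in the knockout on bicarbonate by 0.69 (limma adjusted p = 0.000956) and on water by 0.35, Vma21 and Dmxl1 were lower on water by 0.30 and 0.43, and Atp6v1g2 was higher on bicarbonate by 0.76. Of 13 TFE and mTORC1 regulators, 2 were higher and 1 lower on bicarbonate and 1 was higher and 1 lower on water; Lamtor1, an anchor of the Ragulator complex on the lysosome, was higher by 0.55 on bicarbonate (limma adjusted p = 0.00178) and by 0.75 on water (limma adjusted p = 0.000133). Of the 6 other acid phosphatases listed, 3 were in the table and Acp1, a cytosolic enzyme, was lower by 0.31 on bicarbonate and 0.26 on water. Over all genes tested 18.4% passed between genotypes on bicarbonate and 21.9% on water. For bicarbonate in either genotype 0 genes of these 3 lists passed by limma. At an unadjusted p under 0.05 in the knockout there were 3 of the 15 V-ATPase genes, 2 of the 13 regulators and 0 of the 3 phosphatases. This was so for 7.99% of all genes. In wild type there were 2, 5 and 0 of the same lists, against 12.0% of all genes.

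Macrophages are rich in lysosomes, so their markers were set beside these results. All 10 markers of macrophages and other immune cells were in the table, and their summed level was 134 to 148 RPKM in knockout mice on bicarbonate, 142 to 168 in knockout mice on water, 113 to 142 in wild-type mice on bicarbonate and 97.0 to 139 in wild-type mice on water. On water these sums did not overlap between genotypes. Cd74, which chaperones class II MHC, was higher in the knockout on water by 0.59 (limma adjusted p = 0.00371), and 9 of 10 did not pass. Between genotypes on bicarbonate 0 of 10 passed. Those at an unadjusted p under 0.05 between genotypes were 3 on each drink, against 31.4% of all genes on bicarbonate and 34.3% on water. For bicarbonate 0 of 10 passed by limma in either genotype, with 0 at an unadjusted p under 0.05. The osteoclast markers Ocstamp and Dcstamp were not in the table, and Ctsk lay between 1.07 and 2.93 RPKM in all libraries. Of the 7 intercalated cell markers 1, the exchanger Slc26a4, was lower in the knockout on each drink, and the summed level was 273 to 308 RPKM in knockout mice on bicarbonate, 290 to 365 in knockout mice on water, 316 to 429 in wild-type mice on bicarbonate and 301 to 374 in wild-type mice on water. On bicarbonate these sums did not overlap between genotypes. For bicarbonate 0 of the 7 passed by limma in either genotype. At an unadjusted p under 0.05 there were 4 in the knockout and 2 in wild type, against 7.99% and 12.0% of all genes. The medians of this list were -0.25 in the knockout and 0.19 in wild type. In the interaction 0 passed and 3 were at an unadjusted p under 0.05, against 8.19% of all genes, with a list median of -0.44. Proximal tubule markers summed to 10099 to 15464 RPKM in knockout mice on bicarbonate, 10735 to 23512 in knockout mice on water, 2573 to 11283 in wild-type mice on bicarbonate and 8353 to 15209.5 in wild-type mice on water. For bicarbonate 1 of these 8 was lower in the knockout and 2 were lower in wild type by limma. Over all genes tested 0.0232% and 0.139% were called. At an unadjusted p under 0.05 there were 3 and 5, against 7.99% and 12.0% of all genes. The list medians were -0.22 and -0.26. This drop of proximal tubule markers moved with the bicarbonate comparison in which Acp2 passed, and its part there was not tested. In knockout against wild type 1 of the 8 was higher and 1 lower on bicarbonate, and 3 were higher and 2 lower on water. The share of all genes called between genotypes, for this and the other marker lists, was 18.4% on bicarbonate and 21.9% on water. Red blood cell markers summed to 234 to 612 RPKM in knockout mice on bicarbonate against 811 to 1550 in wild-type mice on bicarbonate, without overlap, and 2 of 5 were lower in the knockout. On water their sums overlapped, at 373 to 2068 RPKM in the knockout against 501 to 1572 in wild type, and 0 of 5 passed by limma, with 0 at an unadjusted p under 0.05. Umod, 1 of 2 markers of the thick ascending limb, was lower in the knockout on each drink, and Nphs1, 1 of 2 podocyte markers, was lower on bicarbonate. The part of these cell types in the genotype differences was not tested.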

How the data were processed

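RNA of kidney slices from 16 mice was sequenced, 1 library per animal, and the samples were grouped by the genotype and treatment labels. The deposited values are RPKM per gene in 1 table made by the authors. The submitters' processing notes name Salmon 1.5.2, edgeR 3.34.0 and 2 genome builds, mm10 and GRCm39, but do not say what each was used for. All 13430 gene IDs matched a symbol in GENCODE M21 (GRCm38), the source of positions and transcript lengths. Whole reads could not be recovered, so depth is unknown and no counting interval is given; a value of 0 may be a failed estimate.

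Genes that reached 0.5 RPKM in 4 or more libraries were tested (12943, with 487 set aside). Values were put on the log2(RPKM + 0.1) scale and fitted by limma 3.58.1 (R 4.3.3) with trended and robust variances, in 1 fit of the 4 group means. Tests were two-sided, and p-values were adjusted by Benjamini-Hochberg over the 12943 genes of each comparison (threshold 0.05). The procedure was tested on simulated data first. The alternatives were pseudocount 1, no filter, only the groups compared, median-of-ratios scaling, quantile normalization, no trend or robust fitting, removal of the length and GC trend, a replicate block, and leaving out each library. Every member past the threshold is named in its comparison, and the other lists were named by up to 8 calls with the smallest p. The members and lists were chosen with earlier results of these data known. The labels give equal replicate numbers but no pairing. Same-number correlations of deviations lay between -0.05 and 0.10 over the 4 comparisons. The best match was the same number for 3 of 4 libraries between genotypes on bicarbonate, and for 0 to 2 of 4 in the other comparisons. Such correlations cannot show whether libraries were handled together.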

Additional observations from a re-analysis of the deposited data

Results flagged for a closer look

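Among 168 sets of 4 libraries (42 members in 4 groups), 14 held a library far from the other 3 by Dixon's criterion, where chance gives about 1 in 20. Of these, 7 were wild-type bicarbonate replicate 3. It was high for Lamp1 at 553 RPKM (others 454 to 468), Ctsa at 207 (164 to 169), Ctsb at 164 (116 to 123), Ctsl at 217 (165 to 170) and Ctsz at 96.4 (74.2 to 78.0). It was also high for the pump genes Atp6v1e1 at 158 (130.4 to 132) and Atp6v0b at 232 (183 to 191). The summed level of proximal tubule markers was lowest in this library, and the part of that in these values was not tested. Without it 14 members passed between genotypes on bicarbonate, 6 higher and 8 lower in the knockout. With all libraries 13 passed, 4 higher and 9 lower.

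The other 7 were spread over 6 libraries. In wild-type mice on bicarbonate, Tfeb was low in replicate 2 at 7.84 RPKM (others 14.3 to 14.7) and Gaa, the acid glucosidase that digests glycogen, was high in replicate 4 at 51.3 (27.2 to 29.7). In wild-type mice on water, replicate 1 was high for Asah1 at 92.2 (74.1 to 77.0) and for Atp6v0a1 at 28.4 (26.2 to 26.5), and replicate 2 was high for Ctsa at 171 (154 in the others). In the knockout, Atp6v0e was high in bicarbonate replicate 1 at 133 (123 to 124) and Ctsh was low in water replicate 1 at 197 (239 to 240).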

How the results depend on the processing

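With 4 libraries per group, a table of RPKM and no depth, small differences of low genes such as Gla could not be resolved. Member counts for bicarbonate in each genotype were the same in all 16 alternatives, at 0 in the knockout and 1 in wild type. On water between 12 and 18 members differed by genotype, and on bicarbonate between 10 and 17, and 10 of 15 and 9 of 13 calls held in every alternative. For the interaction 1 member (Acp2) passed after removal of the length and GC trend and with the replicate block, against 0 without, and leaving out 1 library gave 0 to 1. The difference of Acp2 for bicarbonate in the knockout, -0.15, turned to 0.25 without knockout water replicate 4 and to 0.08 without knockout bicarbonate replicate 1, and with 1 library left out it ranged from -0.40 to 0.25. The cause was not tested. Over all genes, calls for bicarbonate in wild type numbered 18, against 5 with only the groups compared, 34 with quantile normalization, 5 without the length and GC trend and 2 with the replicate block, and 2 to 82 with a library left out. All-gene calls for the interaction were 2, with 1 to 5 in alternatives. Whether libraries of equal replicate number were handled together is not known. With the replicate block the members called were 0 in the knockout and 1 in wild type for bicarbonate, 14 between genotypes on bicarbonate and 15 on water.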
